A study of Homo sapiens with 6 samples.

Results

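Forkhead genes encode transcription factors that share a winged-helix DNA-binding domain and bind DNA with a core close to GTAAACA. They were read here in the human cell line A375, derived from a BRAF-mutant melanoma, with the transcription factor gene SOX10 knocked out or left intact. A gene was taken as a member when its protein-coding row had a symbol made of FOX, a letter and a number, with an optional last letter or L suffix, and 3 genes of the family that match this pattern were not included. This gave 46 members of 58721 genes in the table and of 19940 protein-coding ones. There were 3 SOX10 knockout libraries, from A375 cells with a guide RNA against SOX10, and 3 control libraries, from wild-type A375 cells with a guide RNA against mCherry, a fluorescent protein gene that the human genome lacks. Both groups were grown in DMEM with fetal bovine serum. The sources used here do not state the guide's target site, or if the knockout line was 1 clone or pooled.

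The family is divided by letter into subfamilies with different tasks. FOXO proteins are kept out of the nucleus when insulin and AKT signalling is high, and otherwise switch on genes of cell cycle arrest, stress resistance and autophagy. FOXA proteins open closed chromatin, FOXC, FOXD, FOXF and FOXL1 proteins pattern the mesoderm, neural crest and their derivatives, and FOXP and FOXK proteins act largely as repressors. Melanocytes, from which melanoma arises, descend from the neural crest.

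Gene counts summed to between 70075002 and 78148565 per library, and 3 counts, taken as the floor, corresponded to 0.0383 to 0.0417 CPM (counts-per-million, scaled to the TMM-adjusted size of each library). SOX10 itself stood at 45.5 ± 3.48 CPM in knockout and 234 ± 9.36 CPM in control libraries (SD, n = 3 each; log2 fold change -2.36, with SE 0.08, edgeR adjusted p = 1.84e-07), and an exact two-sided permutation test over all 20 assignments gave p = 0.1, the lowest value that this design can reach. No label says that replicates came from separate cultures, so the spread behind each p-value may be technical. Of 6 tested melanocyte markers 3 rose and 1 fell (66.7% called, against 28% of all tested genes, and median log2 fold change 0.54). Their summed level with 2 untested ones was 138 to 143 CPM in knockout and 58.3 to 63.2 CPM in control libraries. TYRP1 and GPR143, 2 of those that rose, passed the filter on low counts through their knockout libraries alone, and DCT, which fell, through its control libraries alone, so this count and median support no direction. Without control replicate 1 or 3 only 1 rose, and 2 fell without knockout replicate 2. MITF made up most of this sum, with 138 ± 2.29 CPM in knockout and 57.5 ± 2.15 CPM in control libraries, and the pigment genes TYR and SLC45A2 were too low to be tested. In bulk RNA, fewer cells of a type and less RNA per cell cannot be told apart.

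Of the 46 forkhead genes, 23 had enough counts to be tested. Of these, 5 were higher in knockout libraries (FOXP1, FOXL1, FOXA1, FOXF1 and FOXC2), 6 were lower (FOXD2, FOXO4, FOXP4, FOXC1, FOXN3 and FOXO1) and 12 did not pass the threshold of 0.05 for the adjusted p of edgeR's quasi-likelihood test. The 11 genes that passed were 47.8% of the tested members. The same threshold was passed by 28% of all 19263 tested genes (14% higher and 14% lower) and by 33% of 13928 tested protein-coding genes (15.9% higher and 17.1% lower). Knockout and control libraries did not overlap in 12 of the 23 members (52.2%), against 41.6% of all tested genes. The median log2 fold change was -0.05 over the tested members and -0.02 over all tested genes, and the median size of the change, whatever its sign, was 0.49 and 0.21. Of the 23 members, 5 reached the filter on low counts in all libraries of 1 group only. FOXP1 alone among these passed the threshold. It was kept through its knockout libraries, where it is high, and is included in these shares and medians. Without single libraries the higher members numbered between 5 and 7 and the lower ones between 4 and 8.

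For 3 changed members promoter windows are printed, as the members with a change of at least 1.5-fold for which exactly 1 RefSeq start was matched. FOXC2, FOXF1 and FOXL1 also changed by at least 1.5-fold, but no RefSeq window was matched for them, and FOXP1 had 6 starts. Each printed window runs from 250 bases before to 50 bases after the gene's matched start (GRCh38.p14, written 5′ to 3′ on the gene's strand). The matched RefSeq starts differ from the GENCODE starts of these genes, whose coordinates are given below. The windows of FOXA1 and FOXD2 lie wholly inside those coordinates, and that of FOXO4 lies wholly before them. Distances to other genes are taken from the GENCODE starts. Capitals mark the SOX cores ACAAAG and ACAATG and the forkhead core GTAAACA, searched on both strands, and no match in these windows overlapped another.
FOXA1, chr14:37595200-37595499, minus strand: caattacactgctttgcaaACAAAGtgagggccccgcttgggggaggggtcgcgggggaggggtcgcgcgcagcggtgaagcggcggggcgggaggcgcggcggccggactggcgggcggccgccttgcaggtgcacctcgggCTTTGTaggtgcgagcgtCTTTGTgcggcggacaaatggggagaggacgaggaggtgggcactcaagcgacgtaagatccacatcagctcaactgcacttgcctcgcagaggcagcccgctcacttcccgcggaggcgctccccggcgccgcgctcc
FOXO4, chrX:71095601-71095900, plus strand: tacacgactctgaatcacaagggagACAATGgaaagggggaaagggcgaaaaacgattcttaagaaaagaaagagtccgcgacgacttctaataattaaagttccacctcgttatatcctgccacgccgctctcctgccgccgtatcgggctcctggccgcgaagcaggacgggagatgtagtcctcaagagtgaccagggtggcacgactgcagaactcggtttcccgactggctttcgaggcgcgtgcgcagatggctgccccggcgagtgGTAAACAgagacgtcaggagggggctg
FOXD2, chr1:47437794-47438093, plus strand: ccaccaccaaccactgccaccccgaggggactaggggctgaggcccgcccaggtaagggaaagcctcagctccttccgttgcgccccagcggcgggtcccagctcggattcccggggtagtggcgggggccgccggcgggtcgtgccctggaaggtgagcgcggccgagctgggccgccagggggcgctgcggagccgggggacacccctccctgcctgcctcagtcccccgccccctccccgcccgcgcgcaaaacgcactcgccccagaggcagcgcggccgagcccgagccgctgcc
The window of FOXA1 held 3 copies of ACAAAG, at position -231 from the start and, as the reverse complement, at -107 and -89. The window of FOXO4 held GTAAACA at position 24 and ACAATG at -225, and that of FOXD2 held none of the letters searched. Among all 35116 RefSeq promoter windows, 24.5% held at least 1 of both SOX cores and 3.42% held the forkhead core. RefSeq windows were matched for 36 of the 46 members, and of the 47 windows they have, 8 held a SOX core and 2 the forkhead core. A match is a description of these letters and not a binding site.

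**Figure D1:**
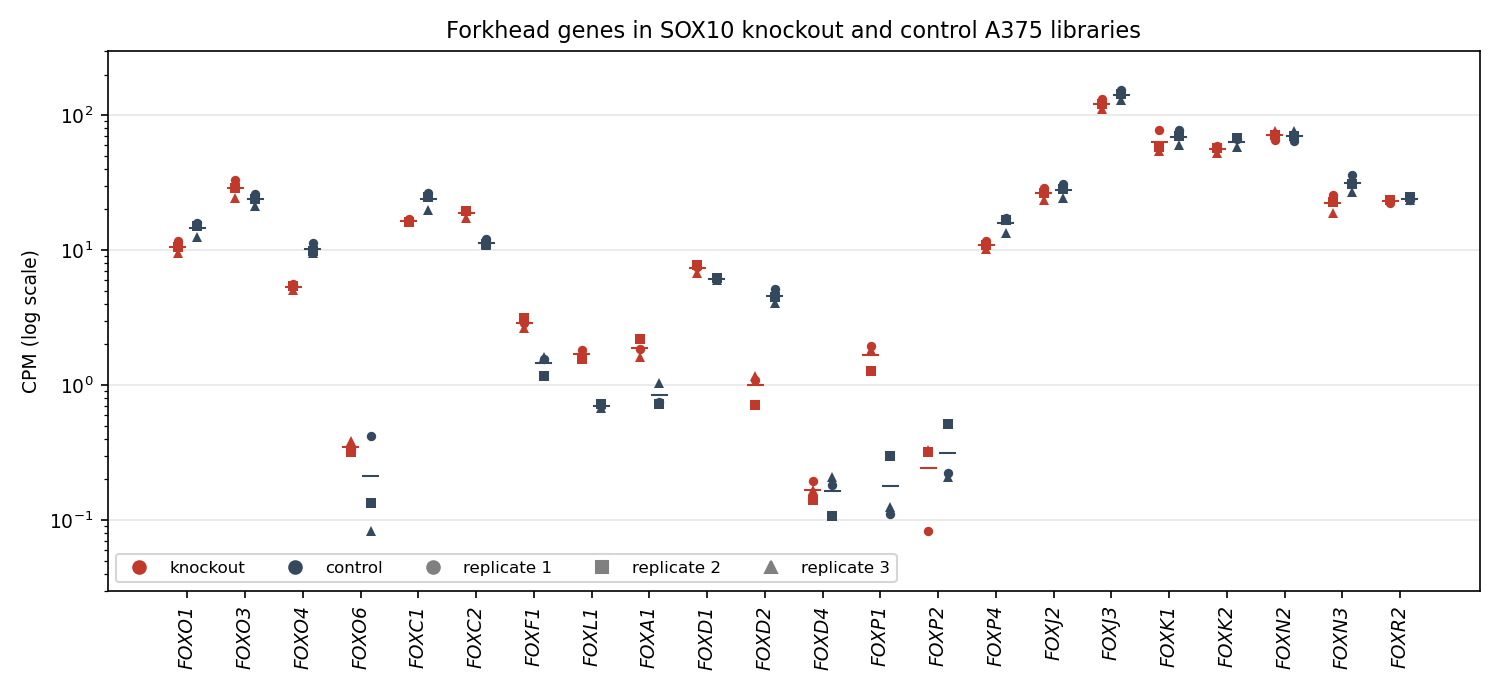
CPM (log axis) of tested forkhead genes in each library, knockout left of control, with marker shapes for replicates and bars for the means of 3 libraries. FOXJ3 sits above 100 CPM in all libraries, and FOXP1 is above 1 CPM in knockout libraries only.

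The FOXO genes, the part of the family controlled by insulin signalling, split. FOXO4 (ENSG00000184481; GRCh38 coordinates from GENCODE release 29 here and for the other genes; chromosome X, 71096197 to 71103535, plus strand) had 5.63, 5.44 and 5.06 CPM in knockout libraries, against 11.3, 9.79 and 9.58 CPM in control libraries. All knockout libraries lay below all control libraries, and FOXO4 fell 1.90-fold (log2 fold change -0.93, with SE 0.09, edgeR adjusted p = 1.24e-04). FOXO1 (ENSG00000150907; chromosome 13, 40469953 to 40666597, minus strand), a mediator of insulin action in liver and muscle, had 11.7, 10.5 and 9.51 CPM in knockout and 15.9, 15.05 and 12.5 CPM in control libraries. Here too the groups were separate, by a narrower gap, and FOXO1 fell 1.37-fold (log2 fold change -0.45, with SE 0.11, edgeR adjusted p = 0.0179). This call was lost without control replicate 1 (adjusted p = 0.0634), control replicate 2 (0.0744), knockout replicate 2 (0.0759) or knockout replicate 3 (0.0584).

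FOXO3, the FOXO gene tied to longevity and to removal of damaged cells, leaned the other way without passing the test. Its levels were 32.9, 28.7 and 24.5 CPM in knockout and 26.05, 24.1 and 21.2 CPM in control libraries, so the groups overlapped (log2 fold change 0.27, 95% interval -0.003 to 0.54, edgeR adjusted p = 0.136). Without knockout replicate 3 the adjusted p was 0.0414. FOXO3 shares 21.7% of its 75-base transcript windows with other genes, above all with the processed pseudogene FOXO3B, and reads of both may be split or dropped. FOXO3B had 2.70 ± 0.591 CPM in knockout and 2.79 ± 0.420 CPM in control libraries (SD, n = 3 each; edgeR adjusted p = 0.881). FOXO6 stood at 0.345 ± 0.0332 CPM in knockout and 0.212 ± 0.180 CPM in control libraries, with an interval of the log2 fold change from -0.47 to 1.88. Its adjusted p was 0.370, and 0.0206 without control replicate 1, where its log2 fold change was 1.65. Summed over the 4 genes, FOXO transcripts came to 44.97 ± 5.57 CPM in knockout and 48.7 ± 5.12 CPM in control libraries, which overlapped.

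The ratio of FOXO1 to FOXO3 within a library is nearly free of the scaling between libraries. Its log2 value was -1.45, -1.41 and -1.32 in knockout libraries, against -0.70, -0.66 and -0.74 in control libraries. The groups were well apart relative to their SDs of 0.07 and 0.04, with a difference of -0.69. An exact two-sided permutation test gave p = 0.1, the smallest possible with 3 against 3 libraries (0.15 adjusted over 6 pairs of related genes). None of the 6 pairs could therefore pass 0.05.

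FOXC1 and FOXC2, close relatives that act together in blood and lymph vessels, the eye and the neural crest, moved in opposite directions. FOXC1 (ENSG00000054598; chromosome 6, 1609972 to 1613897, plus strand) had 16.96, 16.1 and 16.1 CPM in knockout and 26.7, 24.65 and 19.99 CPM in control libraries. It fell 1.45-fold with separate groups (log2 fold change -0.54, with SE 0.11, edgeR adjusted p = 0.00547). FOXC2 (ENSG00000176692; chromosome 16, 86566829 to 86569728, plus strand) had 19.6, 19.4 and 17.2 CPM in knockout and 12.0, 11.1 and 10.8 CPM in control libraries. It rose 1.65-fold, also with separate groups (log2 fold change 0.73, with SE 0.08, edgeR adjusted p = 2.14e-04). The log2 ratio of FOXC1 to FOXC2 was -0.20, -0.26 and -0.09 in knockout libraries, against 1.12, 1.11 and 0.85 in control libraries, so the groups were far apart (difference -1.21, exact permutation p = 0.1, 0.15 adjusted over 6 pairs). Their sum was 35.1 ± 1.64 CPM in knockout and 35.1 ± 3.96 CPM in control libraries.

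**Figure D2:**
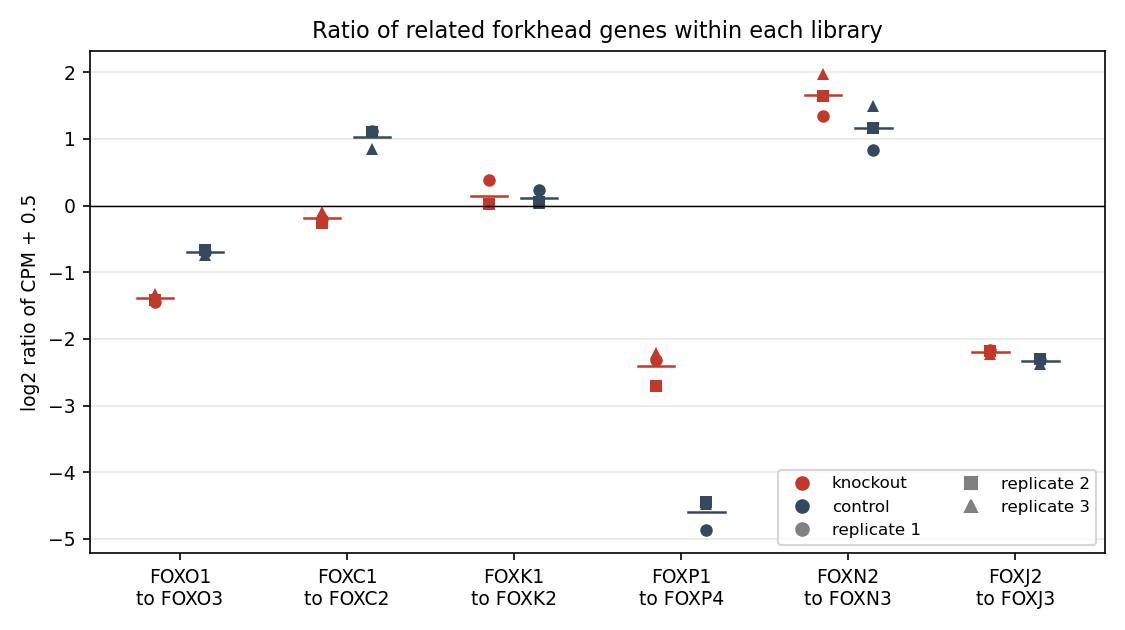
Log2 ratio of CPM + 0.5 for 6 pairs of related forkhead genes in each library, knockout left of control, with bars for the means of 3 libraries. The ratio of FOXC1 to FOXC2 lies below 0 in the knockout libraries and between 0.85 and 1.12 in the control libraries.

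FOXC2 belongs to a cluster on chromosome 16 with FOXF1 and FOXL1, which act in the mesenchyme of lung and gut, and all 3 genes were higher in knockout libraries. The cluster spans 71.6 kb from the start of FOXF1 to the end of FOXL1. FOXF1 (ENSG00000103241; 86510527 to 86515418, plus strand) had 2.90, 3.12 and 2.67 CPM in knockout and 1.57, 1.17 and 1.61 CPM in control libraries. It rose 2.00-fold (log2 fold change 1.00, with SE 0.15, edgeR adjusted p = 0.00141). FOXL1 (ENSG00000176678; 86576368 to 86582160, plus strand) had 1.83, 1.56 and 1.72 CPM in knockout and 0.695, 0.728 and 0.679 CPM in control libraries. It rose 2.43-fold (log2 fold change 1.28, with SE 0.15, edgeR adjusted p = 3.19e-04), and neither gene's groups overlapped.

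Other tested genes with a start within 500 kb of FOXC2, a window chosen after the members' values were seen, did not all follow. FOXC2-AS1, a transcript on the opposite strand that overlaps FOXC2, was higher as well, at 0.388 ± 0.0473 CPM in knockout and 0.120 ± 0.0772 CPM in control libraries (log2 fold change 1.69, edgeR adjusted p = 0.0168). Its exons cover 5% of those of FOXC2, and reads of the pair may not be fully separated, because the counting may have ignored strand. FOXC2-AS1 passed the filter on low counts through its knockout libraries, as only 1 control library reached it. Its log2 fold change was 2.35 without control replicate 1. It lost its call without control replicate 2 (adjusted p = 0.0757), knockout replicate 2 (0.0601) or knockout replicate 3 (0.0539). MTHFSD, whose start lies 11.6 kb from that of FOXC2, on the side of FOXF1, stood at 16.98 ± 0.493 CPM in knockout and 16.95 ± 0.236 CPM in control libraries (log2 fold change 0.00, with SE 0.06, adjusted p = 0.987). LINC02188, 143 kb beyond FOXC2 on the side of FOXL1, fell to 0.0997 ± 0.0808 CPM in knockout libraries, against 0.537 ± 0.185 CPM in control libraries (log2 fold change -2.40, adjusted p = 0.00817, and -3.29 without knockout replicate 3). It had 5, 3 and 15 counts in knockout and 54, 31 and 32 counts in control libraries, and passed the filter through the control libraries, where it is high. FENDRR, a long non-coding RNA that starts 1428 bases from FOXF1 on the opposite strand, was too low to be tested.

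**Figure D3:**
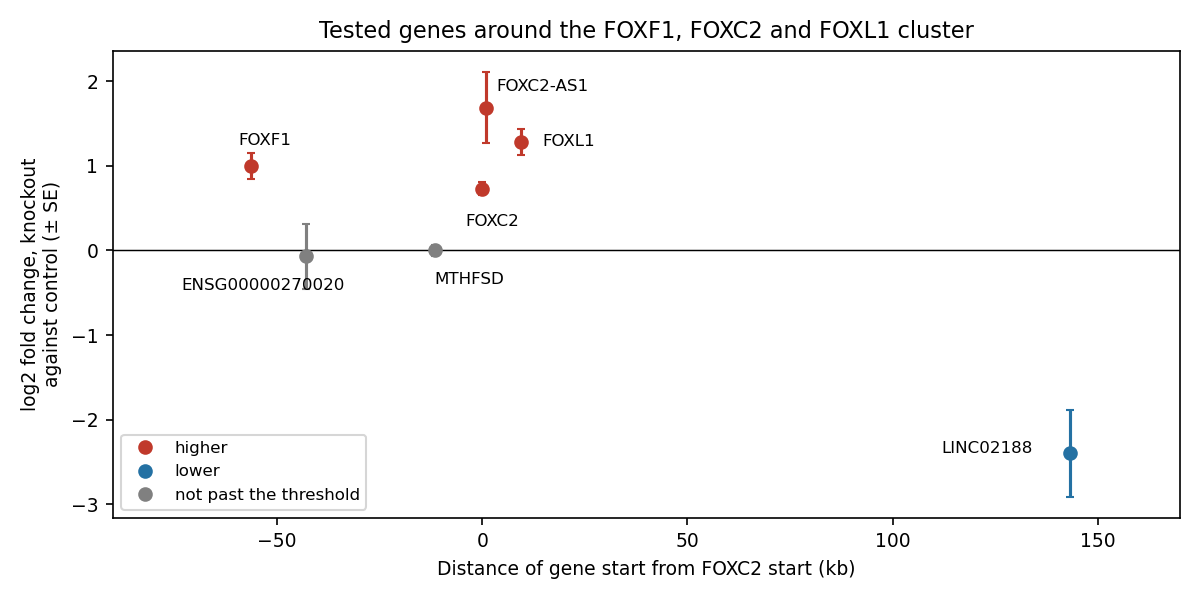
Log2 fold change of knockout against control (± SE) for the tested genes that start within 500 kb of FOXC2, by distance from its start in kb. FOXF1, FOXC2, FOXC2-AS1 and FOXL1 lie above 0, MTHFSD between FOXF1 and FOXC2 lies at 0.00, and LINC02188 lies at -2.40.

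Markers of other cell types were read beside this mesenchymal cluster. Of 10 tested fibroblast markers, 7 rose and 1 fell, with a median log2 fold change of 1.34, against -0.02 over all tested genes. Of the 7, COL1A2, COL3A1, THY1 and POSTN passed the filter on low counts only through the knockout libraries, where they are high, so that they could hardly have been tested without rising. Without control replicate 1 or knockout replicate 1, 4 rose, and none fell without control replicate 2, knockout replicate 2 or knockout replicate 3. The summed level of the 10 was 28.1 to 30.3 CPM in knockout and 16.8 to 20.05 CPM in control libraries, and none was at 0 in all libraries. The most abundant, LUM, had 14.1 ± 1.88 CPM in knockout and 7.84 ± 1.98 CPM in control libraries (edgeR adjusted p = 0.00709). Of 6 tested epithelial markers 4 rose and 1 fell (median 0.41), with KRT18 at 216 ± 6.48 CPM in knockout and 155 ± 3.97 CPM in control libraries, KRT8 at 18.4 ± 0.346 and 14.5 ± 1.10 CPM, and KRT14, which fell, at 0.249 ± 0.0110 and 7.155 ± 0.789 CPM. EPCAM and KRT5, the other 2 that rose, passed the filter through their knockout libraries alone. Without control replicate 2, 2 rose, and KRT8 lost its call (adjusted p = 0.0572). The summed level of all 8 epithelial markers was 236 to 248 CPM in knockout and 178 to 186 CPM in control libraries. Of 5 tested endothelial markers 2 rose and 1 fell (median 0.64). PECAM1 rose to 1.13 ± 0.156 CPM in knockout libraries, against 0.2925 ± 0.088 CPM in control libraries, and CDH5 to 1.96 ± 0.058 CPM, against 0.431 ± 0.121 CPM. KDR fell to 0.175 ± 0.128 CPM in knockout libraries, against 6.32 ± 1.10 CPM in control libraries. The summed level of all 8 was 4.17 to 5.20 CPM in knockout and 7.36 to 9.19 CPM in control libraries, where KDR made up most of it. KDR passed the filter through its control libraries. Genes called were 80% of the tested fibroblast, 83.3% of the epithelial and 60% of the endothelial markers, against 28% of all tested genes. These shares include the markers kept through 1 group alone. The part of other cell types in the change of the forkhead genes was not tested.

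FOXA1, a factor that opens chromatin for the estrogen receptor, was low and higher in knockout libraries. It (ENSG00000129514; chromosome 14, 37589984 to 37596059, minus strand) had 1.86, 2.20 and 1.62 CPM in knockout and 0.751, 0.728 and 1.04 CPM in control libraries. The groups did not overlap, and FOXA1 rose 2.25-fold (log2 fold change 1.17, with SE 0.20, edgeR adjusted p = 0.00237). FOXA2 and FOXA3, the other FOXA genes, which act in endoderm and liver, had at most 3 counts in any library. ESR1, which encodes the estrogen receptor alpha, rose in the same comparison, with 0.308 ± 0.0638 CPM in knockout and 0.0453 ± 0.0430 CPM in control libraries (edgeR adjusted p = 0.00579), close to the floor in control libraries. ESR1 was kept for the test through its knockout libraries, and its log2 fold change of 2.71 was 3.79 without control replicate 2.

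Among FOXD genes, FOXD2 had the largest fall of the 23 tested members. FOXD2 (ENSG00000186564; chromosome 1, 47436017 to 47440691, plus strand) had 1.10, 0.715 and 1.17 CPM in knockout and 5.12, 4.46 and 4.04 CPM in control libraries. Every knockout library lay far below every control library, and FOXD2 fell 4.56-fold (log2 fold change -2.19, with SE 0.19, edgeR adjusted p = 4.59e-05). FOXD2-AS1, a long non-coding RNA that starts 1376 bases from FOXD2 on the opposite strand, fell to 1.51 ± 0.262 CPM in knockout libraries, against 3.17 ± 0.569 CPM in control libraries (log2 fold change -1.07, with SE 0.18, edgeR adjusted p = 0.00259). Of 7 tested genes that start within 500 kb of FOXD2, 3 fell, with FOXD2-AS1 among them, and 1 rose. Over all tested genes 28% were called, 14% higher and 14% lower. The other falls were of STIL (log2 fold change -0.17, edgeR adjusted p = 0.0452) and LINC01389. LINC01389 had 0.0429 ± 0.0407 CPM in knockout libraries, near the floor, against 0.279 ± 0.0254 CPM in control libraries. The gene that rose was CYP4X1 (log2 fold change 1.33). So few genes support no statement about the region. CMPK1, at 354 ± 8.39 CPM in knockout and 352 ± 11.5 CPM in control libraries, did not pass (log2 fold change 0.01, adjusted p = 0.916).

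FOXD1, a factor of kidney stroma, had 7.49, 7.74 and 6.80 CPM in knockout and 6.24, 6.23 and 6.02 CPM in control libraries. Its groups did not overlap but it missed the threshold by little (log2 fold change 0.25, 95% interval 0.059 to 0.445, edgeR adjusted p = 0.0570). It passed when libraries were scaled by total counts (0.0423), when at least 1 CPM was required in 3 libraries (0.0412) and without knockout replicate 3 (0.0457). FOXD4 and its copies FOXD4L1, FOXD4L3, FOXD4L4, FOXD4L5 and FOXD4L6 share between 39.1% and 93.8% of their transcript windows with other genes, so their counts are uncertain. FOXD4 was the only one of them with enough counts to test, at 0.167 ± 0.0270 CPM in knockout and 0.166 ± 0.0518 CPM in control libraries (adjusted p = 0.987, with an interval of the log2 fold change from -0.83 to 0.85).

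FOXP1 had the largest rise of the 23 tested members, on low counts. FOXP1 (ENSG00000114861; chromosome 3, 70952817 to 71583993, minus strand), a repressor known from B cells, heart and brain, had 140, 99 and 142 counts in knockout and 8, 22 and 9 counts in control libraries. As CPM this was 1.945, 1.26 and 1.81 in knockout and 0.111, 0.297 and 0.125 in control libraries, a 9.43-fold rise (log2 fold change 3.22, with SE 0.35, edgeR adjusted p = 1.86e-04). FOXP1 was kept for the test through its knockout libraries, since only 1 control library reached the filter, so that it could hardly have been tested without differing. Of its 36714 annotated exon bases, 2539 (6.92%) lie in exons of another gene on the same strand, mainly ENSG00000285708, whose exons cover 3320 bases. That gene had 0 counts in all libraries. How reads in both were counted is not given, so such reads may be missing from the counts of FOXP1. EIF4E3, the only tested gene that starts within 500 kb, stood at 0.526 ± 0.166 CPM in knockout and 0.375 ± 0.0742 CPM in control libraries and did not pass (adjusted p = 0.287).

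FOXP4, a relative of FOXP1 that is active in lung and gut epithelium, went the other way. FOXP4 (ENSG00000137166; chromosome 6, 41546426 to 41602384, plus strand) had 11.7, 10.97 and 10.2 CPM in knockout and 17.4, 16.8 and 13.5 CPM in control libraries. It fell 1.45-fold with separate groups (log2 fold change -0.54, with SE 0.11, edgeR adjusted p = 0.00648). The log2 ratio of FOXP1 to FOXP4 was -2.32, -2.70 and -2.21 in knockout and -4.87, -4.44 and -4.48 in control libraries, again with separate groups (difference 2.19, exact permutation p = 0.1, 0.15 adjusted over 6 pairs). These ratios are of CPM and not per length. FOXP1 was kept through its knockout libraries, so that the separation of this pair was largely set beforehand and supports nothing further. The pseudocount of 0.5 CPM exceeds the control level of FOXP1 (0.1775 ± 0.103 CPM), so the control ratios and the difference depend on it. FOXP2, known for its part in speech, had 0.245 ± 0.140 CPM in knockout and 0.314 ± 0.172 CPM in control libraries (adjusted p = 0.693), and FOXP3, the factor of regulatory T cells, had at most 9 counts in any library.

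**Figure D4:**
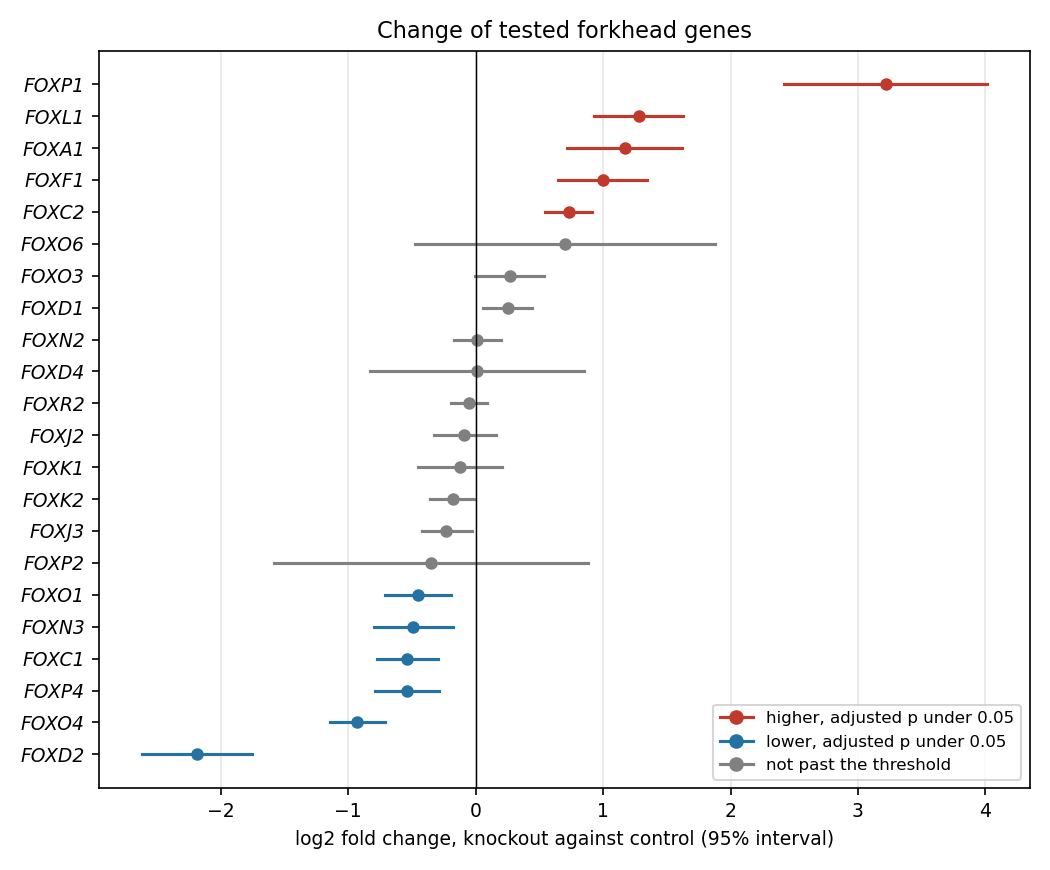
Log2 fold change of knockout against control with its 95% interval for tested forkhead genes, ordered by value. FOXP1 is highest at 3.22 and FOXD2 lowest at -2.19. The intervals of FOXN2 (0.01), FOXR2 (-0.05), FOXJ2 (-0.09) and FOXK1 (-0.12) include 0. Those of FOXJ3 (-0.23) and FOXK2 (-0.18) lie just below 0.

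None of the 4 most abundant forkhead genes passed the test. FOXJ3, FOXN2, FOXK1 and FOXK2 together held most of the family's counts, 24.6%, 14.5%, 12.8% and 11.4% of the summed CPM in knockout libraries, against 26.1%, 13.1%, 12.7% and 11.8% in control libraries. FOXJ3, a widely expressed factor, had 131, 121 and 112 CPM in knockout and 155, 142 and 128 CPM in control libraries. Its groups overlapped and it missed the threshold (log2 fold change -0.23, 95% interval -0.42 to -0.03, edgeR adjusted p = 0.0920), which it passed without control replicate 3 (0.0226). FOXJ2 stood at 26.3 ± 2.67 CPM in knockout and 27.9 ± 3.28 CPM in control libraries (interval of the log2 fold change -0.33 to 0.16). The log2 ratio of FOXJ2 to FOXJ3 was -2.16, -2.18 and -2.22 in knockout and -2.31, -2.30 and -2.37 in control libraries, a small difference of 0.14 with separate groups (exact permutation p = 0.1, 0.15 adjusted over 6 pairs). FOXJ1, the factor of motile cilia, had 1 count in knockout replicate 3 and 0 in the other libraries.

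FOXK1 and FOXK2, repressors of autophagy genes that also act on glycolysis, did not pass either. FOXK1 had 77.3, 58.0 and 54.4 CPM in knockout and 77.4, 69.6 and 59.7 CPM in control libraries (log2 fold change -0.12, 95% interval -0.45 to 0.20, edgeR adjusted p = 0.589). FOXK2 had 58.97, 57.1 and 52.8 CPM in knockout and 66.0, 67.2 and 58.1 CPM in control libraries (log2 fold change -0.18, 95% interval -0.358 to -0.003, edgeR adjusted p = 0.1255), and passed without control replicate 3 (0.0284). The groups overlapped in both genes. The log2 ratio of FOXK1 to FOXK2 averaged 0.15 ± 0.21 in knockout and 0.11 ± 0.11 in control libraries (exact permutation p = 0.9). Exons of genes on the opposite strand cover 14.1% of the exon bases of FOXK2, WDR45B among them, which stood at 86.8 ± 0.574 CPM in knockout and 84.9 ± 3.11 CPM in control libraries.

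Of the FOXN genes, FOXN3, a repressor that was found as a suppressor of checkpoint defects in yeast, was lower. FOXN3 (ENSG00000053254; chromosome 14, 89124871 to 89619149, minus strand) had 25.45, 22.55 and 18.85 CPM in knockout and 36.0, 31.1 and 26.75 CPM in control libraries. It fell 1.40-fold with separate groups (log2 fold change -0.49, with SE 0.13, edgeR adjusted p = 0.0269). The call was lost when libraries were scaled by total counts (adjusted p = 0.0538) and without control replicate 1 (0.0848), control replicate 2 (0.0806), knockout replicate 2 (0.0913) or knockout replicate 3 (0.0745). FOXN3-AS1, on the opposite strand within FOXN3, had 0.726 ± 0.0956 CPM in knockout and 0.494 ± 0.117 CPM in control libraries and did not pass (adjusted p = 0.134). FOXN2 had 65.9, 71.6 and 75.7 CPM in knockout and 64.6, 70.4 and 75.99 CPM in control libraries, so that its groups lay on top of each other (log2 fold change 0.01, 95% interval -0.17 to 0.20, adjusted p = 0.919). The log2 ratio of FOXN2 to FOXN3 was 1.35, 1.64 and 1.98 in knockout and 0.83, 1.17 and 1.49 in control libraries. The groups overlapped (means 1.66 ± 0.31 and 1.16 ± 0.33, exact permutation p = 0.2). At every replicate number the knockout library had the higher ratio, which this unpaired test does not use.

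FOXR2, an X-linked gene that is activated in some childhood brain tumours, was well expressed in both groups. It (ENSG00000189299; chromosome X, 55623400 to 55625325, plus strand) had 22.2, 23.6 and 23.3 CPM in knockout and 23.4, 24.7 and 23.7 CPM in control libraries. The groups overlapped and the interval of its log2 fold change was narrow, -0.195 to 0.090 (adjusted p = 0.599). Its relative FOXR1 had 0 counts in all libraries. Per kilobase of annotated exon, FOXR2 was among the highest members, at 11.98 ± 0.385 CPM per kb in knockout and 12.4 ± 0.338 CPM per kb in control libraries.

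On this scale per length, FOXJ3 ranked highest, at 17.6 ± 1.35 CPM per kb in knockout and 20.6 ± 1.92 CPM per kb in control libraries. FOXN2 followed, at 12.96 ± 0.900 and 12.8 ± 1.04 CPM per kb, with a range that overlapped that of FOXR2 in both groups. FOXC2 stood 4th in knockout libraries at 6.46 ± 0.460 CPM per kb and 8th in control libraries at 3.90 ± 0.207 CPM per kb. FOXC1 stood 8th in knockout libraries at 4.18 ± 0.127 CPM per kb and 5th in control libraries at 6.06 ± 0.873 CPM per kb. FOXK1, FOXK2 and FOXJ2 lay between 4.18 and 5.63 CPM per kb in knockout and between 4.44 and 6.38 CPM per kb in control libraries. The length counts every annotated exon base, which understates genes with many long annotated isoforms such as FOXP1, at 0.0456 ± 0.00982 CPM per kb in knockout and 0.00484 ± 0.00282 CPM per kb in control libraries.

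The remaining members were scarce. Of the 23 members that were not tested, 6 had 0 counts in all libraries (FOXB1, FOXB2, FOXE1, FOXI2, FOXR1 and FOXS1), and the other 17 had at most 12 counts in any library. At this depth a count of 0 allows a level of up to 0.0417 CPM. FOXI3 had 5, 1 and 3 counts in knockout and 12, 9 and 11 counts in control libraries, and FOXN1, the factor of thymic epithelium, had 4, 7 and 4 counts in knockout and 0, 1 and 1 counts in control libraries. Both were named after their values were seen and neither had enough counts to be tested.

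Genes that act on FOXO proteins were examined beside the family. Among 23 tested genes of insulin and AKT signalling, which sends FOXO proteins out of the nucleus, 5 rose and 8 fell (56.5% called, against 28% of all tested genes; median log2 fold change 0.01, against -0.02). SGK1, a kinase that phosphorylates FOXO3, rose to 202 ± 6.48 CPM in knockout libraries, against 118 ± 4.49 CPM in control libraries (log2 fold change 0.78, edgeR adjusted p = 2.03e-05). IRS1 rose to 71.7 ± 7.86 CPM in knockout libraries, against 32.0 ± 2.64 CPM in control libraries, and INPP4B, a lipid phosphatase, to 130.7 ± 4.55 CPM, against 104.7 ± 5.05 CPM. Only 3 of these genes rose without control replicate 2, knockout replicate 2 or knockout replicate 3. The adaptor IRS2, itself a FOXO target, fell to 102.6 ± 15.1 CPM in knockout libraries, against 181 ± 28.65 CPM in control libraries (log2 fold change -0.82, edgeR adjusted p = 0.00227). PIK3R1, a regulatory subunit of PI3 kinase, fell to 35.0 ± 2.69 CPM in knockout libraries, against 60.2 ± 6.91 CPM in control libraries, and TRIB2, which restrains FOXO proteins in melanoma, to 58.9 ± 3.42 CPM, against 85.0 ± 4.22 CPM.

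Of 26 genes whose proteins modify or carry FOXO proteins, 2 rose and 4 fell (median -0.10). The share called, 23.1%, was below the 28% of all tested genes, so this count says nothing particular about the list. SFN, a 14-3-3 protein gene, rose to 4.68 ± 0.284 CPM in knockout libraries, against 1.11 ± 0.473 CPM in control libraries (log2 fold change 2.07, edgeR adjusted p = 2.84e-04), and the ubiquitin ligase gene STUB1 to 16.6 ± 1.199 CPM, against 12.4 ± 1.27 CPM. STUB1 lost its call without control replicate 2 (adjusted p = 0.0551). SKP2, YWHAG and STK3 fell by 0.25, 0.21 and 0.26 on the log2 scale. The count of falling genes in this list rested on single libraries: it was 0 without control replicate 2, without knockout replicate 1 or without knockout replicate 2, and 2 without control replicate 1 or without knockout replicate 3.

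Known FOXO target genes went both ways. Of 33 tested, 12 rose and 8 fell (60.6% called; median 0.05). CITED2 rose to 122 ± 3.08 CPM in knockout libraries, against 30.15 ± 0.721 CPM in control libraries (log2 fold change 2.02, edgeR adjusted p = 1.21e-07), and IL7R, an interleukin receptor gene, to 372 ± 9.996 CPM, against 98.98 ± 4.79 CPM. CDKN1A, which encodes the cell cycle inhibitor p21, rose to 182 ± 5.19 CPM in knockout libraries, against 89.9 ± 3.81 CPM in control libraries. ERBB3 fell to 12.25 ± 1.52 CPM in knockout libraries, against 276 ± 31.97 CPM in control libraries (log2 fold change -4.49, edgeR adjusted p = 1.17e-07), and FBXO32, a ubiquitin ligase of muscle wasting, to 8.91 ± 0.381 CPM, against 13.9 ± 0.803 CPM. These genes have other regulators too, and whether a FOXO protein acted on them was not measured.

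Among 27 partners and corepressors of forkhead proteins 3 rose and 9 fell (44.4% called; median -0.19). SMAD2, which joins FOXH1, rose to 143 ± 0.835 CPM in knockout libraries, against 108.9 ± 4.39 CPM in control libraries (log2 fold change 0.40, edgeR adjusted p = 9.57e-04), while FOXH1 itself had at most 4 counts in any library. TLE4, a Groucho corepressor, fell to 60.0 ± 3.97 CPM in knockout libraries, against 92.9 ± 8.24 CPM in control libraries (log2 fold change -0.63, edgeR adjusted p = 5.88e-04). Its relative TLE2 fell to 0.129 ± 0.110 CPM in knockout libraries, against 0.798 ± 0.04205 CPM in control libraries, and CTNNB1, the gene of beta-catenin, a FOXO partner, to 473 ± 12.4 CPM, against 615 ± 28.4 CPM. TLE2 had 4, 6 and 20 counts in knockout and 56, 57 and 61 counts in control libraries and passed the filter through the control libraries, and its log2 fold change of -2.60 was -3.55 without knockout replicate 3. Scaled by total counts 5 of these genes were lower, as they were without control replicate 1, control replicate 2 or knockout replicate 3, and 3 were lower without knockout replicate 2.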

How the data were processed

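RNA was sequenced from 3 SOX10 knockout and 3 control A375 libraries, made with a stranded mRNA kit, per the labels' protocols. HISAT2, HTSeq and hg38 are named in the submitters' processing notes; the sources used here do not give their versions, the strand setting or the annotation. The deposited values are raw HTSeq read counts, with no normalization by the authors. All 58721 identifiers were in GENCODE release 29 (GRCh38), which gave types, lengths and coordinates. No row was a counting summary.

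Counts were filtered with filterByExpr, scaled by TMM and tested with edgeR 4.0.16 in R 4.3.3 (quasi-likelihood, two-sided, Benjamini-Hochberg over 19263 genes, threshold 0.05). CPM uses TMM-scaled library sizes, and fold changes in folds are ratios of mean CPM. Pairs of related genes were tested by exact permutation of log2 ratios with a pseudocount of 0.5 CPM. Alternatives were DESeq2 1.42.0, limma-voom (limma 3.58.1), other scalings and filters, a replicate block and leaving out each library. On counts simulated from the levels and spread of these libraries (18928 genes tested) the share recovered was 49.2% at a simulated 1.5-fold change (65 genes), 73.85% at 2-fold (65 genes) and 87.5% at 4-fold (64 genes). Few genes were changed there (144 passed, against 28% of genes in the data), and libraries were drawn independently of their replicate numbers. These shares therefore do not measure the power of the real comparison.

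Floors and intervals cover counting error or library spread only. Replicates differed by more than sampling noise. Members were named if they passed, averaged at least 5 CPM or belonged to a pair, and from each list of genes that act with forkhead proteins up to 3 per direction. Members and lists were chosen with earlier results of these data known. Shared windows were 75 bases of GENCODE transcripts. Some genes counted among the tested ones are not reported here by name or in figures. Figures were drawn with matplotlib 3.10.9.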

Additional observations from a re-analysis of the deposited data

How the results depend on the processing

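Over 12 alternatives (the replicate block apart), 9 of the 11 calls among forkhead genes held in every one; FOXN3 and FOXO1 lost theirs as given above, and no called member changed sign. Among members that passed in no alternative, the log2 fold change took the other sign without single libraries for FOXD4 (-0.22 without control replicate 2, -0.10 without knockout replicate 1; up to 0.21), FOXJ2 (0.00 without control replicate 1; down to -0.17), FOXN2 (-0.03 without control replicate 1 or knockout replicate 3; up to 0.07) and FOXP2 (0.19 without control replicate 2, 0.05 without knockout replicate 1; down to -0.62). Leaving out single libraries gave 1986 to 2935 higher and 1794 (without knockout replicate 2) to 2958 lower genes over all tested, and 5 to 7 higher and 4 to 8 lower forkhead genes. Deviations of same-numbered libraries from their group means had correlations of 0.656 (replicate 1), 0.041 (replicate 2) and 0.706 (replicate 3) over 13929 genes. Knockout replicate 1 gave -0.676 with control replicate 3, and knockout replicate 3 gave -0.666 with control replicate 1. Replicates 1 and 3 thus deviated alike in both groups, and the main fit leaves this in its spread. The main fit used no pairing because no label states one. Control replicate 2 correlated best with knockout replicate 1 (0.207). With the replicate block 4637 genes were higher and 5176 lower, 8 and 9 of them forkhead genes. The block also gave 16 lower FOXO modifiers, 5 higher and 19 lower partners, 2 lower melanocyte and 2 lower fibroblast markers.

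List counts moved by more than 1.5 times in these settings. AKT regulators had 3 higher without a filter, and 3 to 5 without single libraries; FOXO modifiers 2 lower by total counts, and 1 to 2 higher and 0 to 6 lower without single libraries; partners 5 lower by total counts, and 3 to 12 without single libraries. Requiring 1 CPM in 3 libraries left 1 higher melanocyte, 4 fibroblast and 2 epithelial markers, and scaling by total counts 0 lower fibroblast markers. Without single libraries, 1 to 3 melanocyte, 4 to 7 fibroblast and 2 to 4 epithelial markers were higher, and 1 to 2 melanocyte and 0 to 1 fibroblast markers lower. The log2 ratio differences stayed on their side of 0 without single libraries except FOXK1 to FOXK2 (-0.07 to 0.11). Depth limits the 23 untested members. The causes were not tested.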
